A study of Mus musculus with 28 samples.

Results

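The collagen genes described here are the protein-coding genes of the deposited counts whose mouse symbol is built as Col, a number, the letter a and a number. The rule uses the symbol alone and no measured value, and it finds 44 of 21764 protein-coding genes. By class, 11 are fibrillar, 6 form basement membrane, 9 are FACIT (fibril-associated collagens with interrupted triple helices), 6 are beaded and 4 are transmembrane. The other 8 (Col7a1, Col8a1, Col8a2, Col10a1, Col15a1, Col18a1, Col26a1 and Col28a1) belong to none of the 5 classes and are given as a group of their own.

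The study followed Pdgfrα-expressing cells and their descendants in the mouse mammary gland. All mice carry PdgfrαCre and the R26mTmG reporter, are C57BL/6 by label and were 10 to 12 weeks old. A cell in which the Pdgfrα promoter drove Cre, and every cell that descends from it, is GFP+, and all other cells keep tdTomato, so GFP records past as well as present activity of that promoter. From each of 4 untreated mice and 3 mice given oestrogen and progesterone (E+P) in slow-release pellets, stromal cells (negative for CD31, CD45, Ter119, CD49f and EpCAM) and luminal cells (CD49f low, EpCAM+) were sorted by colour. Each mouse gave 1 library of each population, which makes 28 libraries from 7 mice in 8 groups: GFP+ and tdTomato+ stroma and GFP+ and tdTomato+ luminal cells, each untreated and with E+P. Libraries hold 8623383 to 24583803 counts (median 15329083.5). Values are CPM, library-scaled by TMM and listed by mouse number. Collagen levels are set beside each other between genes only as CPM per kb of exon. Marker sums and the most abundant marker of a list rest on CPM without a correction for length. A range after a lost call is that of its adjusted p over the alternatives run.

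Collagens are the main proteins of extracellular matrix, each a helix wound from several chains. Fibrillar collagens bear tension, collagen IV forms the network of basement membranes, FACIT collagens sit on the surface of fibrils, beaded collagen VI forms fine filaments around cells, and transmembrane collagens are anchored in the cell membrane. In the mammary gland fibroblasts lay down the fibrillar matrix around the ducts, and the epithelium rests on a basement membrane.

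Marker genes follow the sort of stroma from luminal cells. By edgeR's quasi-likelihood test, 9 of 9 fibroblast markers (a list without collagens) were higher in stroma, with sums of 284 to 12814 CPM (median 6303) over 14 stromal libraries and 11.1 to 102 CPM (median 50.4) over 14 luminal libraries. All of the 8 luminal keratin, claudin and other epithelial markers were lower in stroma, with sums of 3.55 to 486 CPM (median 20.6) against 3897 to 7626 CPM (median 6804). No stromal library reaches the level of a luminal library for the epithelial list, and no luminal library that of a stromal library for the fibroblast list. Of the lists of other cell types, some of which the gates are set to remove, pericyte and smooth muscle had 9 of 10 markers higher in stroma, skeletal muscle 5 of 8, satellite cell 3 of 5, endothelial 5 of 6 (with 1 lower) and haematopoietic 2 of the 5 that could be tested. Basal epithelial markers split into 2 higher and 4 lower of 7, Schwann cell markers into 1 and 2 of 6, and tendon and cartilage markers into 2 and 2 of 6, while 1 of 1 testable adipocyte marker was higher in stroma. Over all 19569 genes tested 33.0% were higher in stroma and 30.5% lower, so the haematopoietic, basal, Schwann cell and tendon counts are not read as a result. Acta2 and Myh11 stand in both the basal and the pericyte list, and Notch3, Sox9, Sox10 and Mbp, of the pericyte, tendon and Schwann lists, are abundant in luminal cells. Ly6a of the fibroblast list encodes Sca1, by which the paper divides luminal cells, and reads 23.6 to 95.7 CPM in tdTomato+ luminal libraries.

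Some libraries stand apart from the others of their group. The luminal epithelial markers sum to 80.1, 312, 486 and 18.2 CPM in tdTomato+ stroma of untreated mice 1 to 4, so the libraries of mice 2 and 3 carry the most epithelial RNA of that group. Skeletal muscle markers sum to 0.95, 1.91, 1.88 and 33.8 CPM in untreated GFP+ luminal cells and to 1.29, 1.4, 45 and 0.853 CPM in untreated tdTomato+ luminal cells, high in mouse 4 of the former and in mouse 3 of the latter. In that same tdTomato+ luminal library of mouse 3, Col1a1 reads 16.1 CPM, against 2.68, 0.669 and 0.465 in mice 1, 2 and 4.

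Collagen RNA spans a wide range over the 8 groups. The collagen genes together take 3.23 to 6.68% of the counts of untreated GFP+ stroma and 5.97 to 6.97% with E+P. In tdTomato+ stroma they take 0.823 to 1.29% untreated and 0.841 to 0.934% with E+P. Every GFP+ stromal library is above every tdTomato+ stromal library, and every stromal library above every luminal one. Luminal shares are 0.0737 to 0.097% and 0.0643 to 0.0727% in GFP+ cells, and 0.0437 to 0.0634% and 0.0598 to 0.137% in tdTomato+ cells, untreated and with E+P. By the group with the highest mean CPM, 23 members peak in GFP+ stroma with E+P and 2 (Col6a6 and Col14a1) in untreated GFP+ stroma. A further 6 (Col6a4, Col6a5, Col17a1, Col19a1, Col25a1 and Col26a1) peak in untreated and 3 (Col10a1, Col20a1 and Col22a1) in E+P tdTomato+ stroma. Luminal peaks fall in each luminal group: Col4a5, Col4a6 and Col11a1 in untreated GFP+ cells, Col9a1, Col9a2 and Col9a3 in E+P GFP+ cells, Col8a1, Col8a2 and Col11a2 in untreated tdTomato+ cells, and Col2a1 in E+P tdTomato+ cells. For 9 members (Col2a1, Col8a2, Col10a1, Col11a2, Col17a1, Col19a1, Col22a1, Col24a1 and Col26a1) even the highest group mean stays under 10 CPM.

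**Figure D1:**
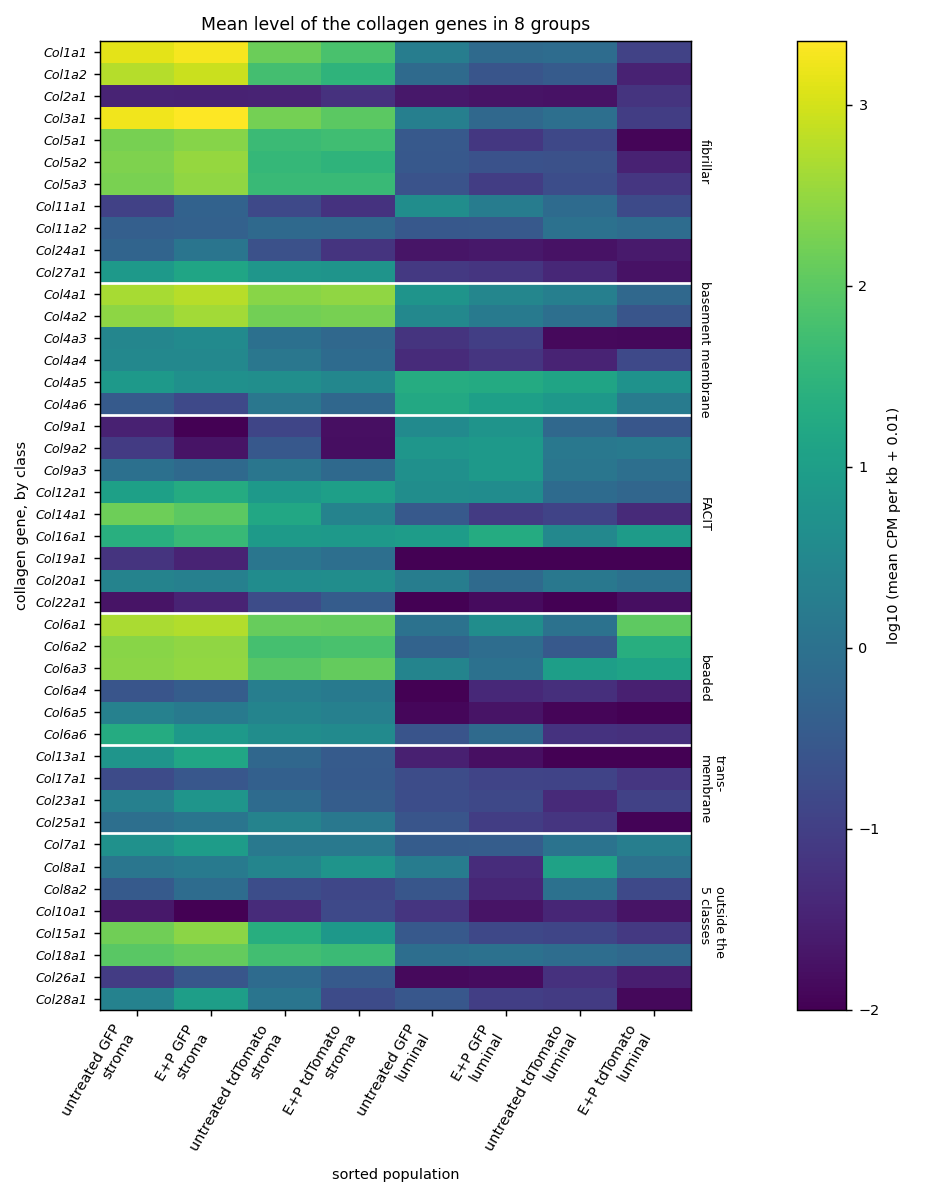
Mean level of each of the 44 collagen genes in the 8 groups, as log10 of CPM per kb plus 0.01, ordered by class. Each mean is over 4 untreated or 3 E+P libraries.

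The order of the levels differs from population to population. In untreated GFP+ stroma the highest are Col3a1 at 1713 CPM per kb (SD 806), Col1a1 at 1367 (SD 501) and Col1a2 at 580.4 (SD 167.8). With E+P the same order reads 2259 (SD 243), 1874 (SD 296) and 826 (SD 92.7). Col3a1 and Col1a1, chains of the fibrils of collagens III and I, lie within their spread of each other in untreated mice, and by the length of the longest transcript Col3a1 stands further ahead, at 3022 (SD 1421) against 1513 (SD 555) CPM per kb. In untreated tdTomato+ stroma the order is Col4a1 at 254 CPM per kb (SD 47.6), Col3a1 at 172 CPM per kb (SD 71.9) and Col4a2 at 164 CPM per kb (SD 29.1). With E+P it is Col4a1 at 293 (SD 27.7), Col4a2 at 183 (SD 17.8) and Col6a3 at 124.2 (SD 13.9). The first place in untreated mice depends on the length used: by the longest transcript Col3a1 is at 304 (SD 127) and Col4a1 at 287 (SD 53.7) CPM per kb. With E+P Col4a1 and Col4a2 keep the first places by that length, and Col3a1 follows at 175 (SD 19.7). GFP+ luminal cells have Col4a5 at 20.7 CPM per kb (SD 3.06), Col4a6 at 17.1 CPM per kb (SD 4.36) and Col16a1 at 8.92 CPM per kb (SD 2.11) untreated. With E+P they have Col16a1 at 19.2 (SD 2.92), Col4a5 at 18.7 (SD 0.944) and Col4a6 at 10.6 (SD 1.46). For tdTomato+ luminal cells the values are Col4a5 at 13.2 CPM per kb (SD 2.34), Col8a1 at 12.1 CPM per kb (SD 12.4) and Col6a3 at 9.81 CPM per kb (SD 10.2) untreated. In their E+P group the order is Col6a1 at 105 (SD 46.9), Col6a2 at 22.4 (SD 14.7) and Col6a3 at 12.8 (SD 1.59). In that last group collagen VI takes all 3 leading places by either length, and in untreated tdTomato+ luminal cells the 3 leading members lie within their spread of each other.

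Shares of the summed CPM per kb show the same division by class. Fibrillar genes make up 58.4 to 69.5% of the collagen sum in untreated and 66.9 to 68.2% in E+P GFP+ stroma, against 29.8 to 42.5% and 24.3 to 28.8% in tdTomato+ stroma. Basement membrane genes hold 9.71 to 13.5% and 11.8 to 12.4% in GFP+ stroma, and 25.3 to 37.2% and 37 to 43.5% in tdTomato+ stroma. The GFP+ and tdTomato+ stromal libraries do not overlap in either class, also by the longest transcript. The shares themselves depend on the length used. By the longest transcript untreated tdTomato+ stroma has 35.2 to 48.8% fibrillar and 21.1 to 32.1% basement membrane genes. In GFP+ luminal cells basement membrane genes hold 46.2 to 51.7% untreated and 36.5 to 36.9% with E+P, and FACIT genes 29.1 to 37.9% and 43.2 to 52.3%. In tdTomato+ luminal cells beaded genes hold 6.07 to 38.7% untreated and 79.7 to 86.5% with E+P, while basement membrane genes hold 25 to 47.1% and 3.22 to 8.13%. Each E+P library of that population is thus mostly collagen VI, which no untreated library is.

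**Figure D2:**
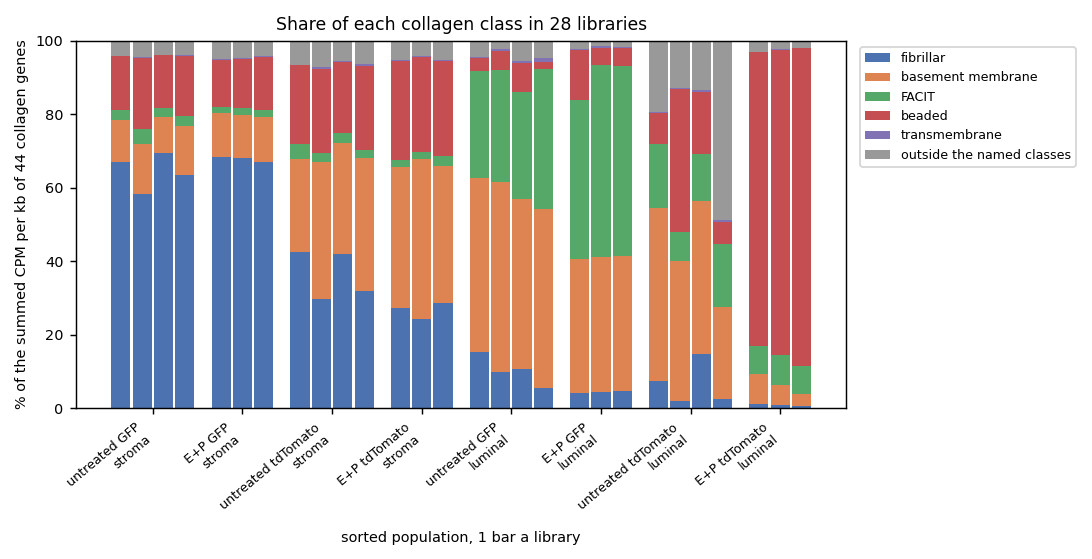
Share of each collagen class in the summed CPM per kb of the 44 collagen genes, 1 bar a library. Fibrillar genes fill most of GFP+ stroma, and beaded genes most of tdTomato+ luminal cells with E+P.

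Most collagen genes are stromal, but Col4a5, Col4a6, the collagen IX chains and Col11a1 are higher in luminal cells. Of the 44 members 43 passed the filter on low counts (Col10a1 did not), and by edgeR's quasi-likelihood test 34 of them were higher in stroma, where 33.0% of 19569 genes were, and 6 higher in luminal cells, where 30.5% of genes were. The other 3 (Col2a1, Col8a2 and Col11a2) were not called, and the median log2 fold change of the tested members was 5.15 beside 0.02 over all genes. In sorted bulk samples fewer cells of a type and less RNA per cell cannot be told apart.

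Among fibrillar genes 8 of 11 were higher in stroma, 1 was lower and 2 were not called, with a median of 9.45. Col1a1, the main chain of collagen I, spans 359.9 to 14446 CPM (median 3419.98) in stroma and 0.428 to 24.3 CPM (median 4.11) in luminal cells (log2 fold change 9.45, SE 0.51, adjusted p = 1.5e-13, higher in 7 of 7 mice, by edgeR's quasi-likelihood test). For Col3a1, which forms the thinner fibrils of collagen III, the ranges are 873 to 27013 CPM (median 6345) and 0.19 to 38.6 CPM (median 6.04) (log2 fold change 9.80, SE 0.62, adjusted p = 2.3e-12, higher in 7 of 7 mice). Col5a1, a chain of the collagen V that seeds fibrils, spans 323 to 2176 CPM (median 874) and 0 to 4.05 CPM (median 0.473) (log2 fold change 10.94, SE 0.41, adjusted p = 1.4e-16, higher in 7 of 7 mice). For these 3 genes the lowest stromal library lies far above the highest luminal library. The other called fibrillar genes had log2 fold changes from 4.51 (Col24a1) to 9.78 (Col1a2). Col11a1, a minor chain of cartilage fibrils, goes the other way, with 0.184 to 11 CPM (median 1.25) in stroma and 0.401 to 84.1 CPM (median 13.5) in luminal cells (log2 fold change -2.81, SE 0.34, adjusted p = 1.1e-07, lower in 6 of 7 mice), with overlapping libraries.

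Basement membrane genes split, with 4 of 6 higher in stroma and 2 in luminal cells. Col4a1, whose product pairs with that of Col4a2 in the common collagen IV molecule, spans 1446 to 5073 CPM (median 2653) in stroma and 3.29 to 54.7 CPM (median 19.4) in luminal cells (log2 fold change 7.47, SE 0.25, adjusted p = 7.1e-18, higher in 7 of 7 mice). Col4a6 spans 0.568 to 14.6 CPM (median 3.54) in stroma and 12.6 to 179 CPM (median 68.5) in luminal cells (log2 fold change -3.95, SE 0.22, adjusted p = 6.9e-14, lower in 7 of 7 mice). Its partner Col4a5 spans 13.2 to 73.8 CPM (median 32.7) and 32.8 to 159.9 CPM (median 108) (log2 fold change -1.46, SE 0.14, adjusted p = 1.4e-09, lower in 7 of 7 mice). Col4a1 does not overlap between lineages, and for both Col4a5 and Col4a6 the highest stromal library lies above the lowest luminal library, although luminal cells were higher in all 7 mice. Of the FACIT genes 6 of 9 were higher in stroma and 3 in luminal cells, the latter being the chains of collagen IX, which coats cartilage fibrils. Col9a1 reads 0 to 2.04 CPM (median 0) in stroma and 0.476 to 32.7 CPM (median 7.31) in luminal cells (log2 fold change -6.68, SE 0.57, adjusted p = 4.6e-10, lower in 7 of 7 mice, by edgeR's quasi-likelihood test). Col9a2 has a log2 fold change of -6.51 and Col9a3 of -1.61, lower in stroma in 7 and 7 of 7 mice. Col9a1 had -7.33 without E+P mouse 1 and -7.27 without untreated mouse 4, and Col9a2 -7.55 without E+P mouse 1 and -7.22 without untreated mouse 1. Apart from Col19a1, the stromal FACIT genes run from log2 fold change 0.93 (Col16a1) up to 8.25 (Col14a1). Col19a1 has 0 counts in all 14 luminal libraries, so against a floor of 3 counts over those libraries together it is at least 323-fold higher in stroma, and the class median is the same with the gene at that bound.

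All of the 6 beaded genes and all of the 4 transmembrane genes were higher in stroma, with medians of 5.85 and 4.49. Col6a1, a chain of the classic collagen VI molecule, spans 477 to 2645 CPM (median 1226) in stroma and 1.96 to 658 CPM (median 8.31) in luminal cells (log2 fold change 5.76, SE 0.26, adjusted p = 3.6e-15, higher in 7 of 7 mice). Its lineages overlap, and the only luminal library that reaches the stromal range is that of tdTomato+ cells of E+P mouse 3. Outside the 5 classes 6 of 7 tested were higher in stroma. Col18a1, a collagen of the basement membrane zone from which endostatin is cleaved, spans 269 to 949.9 CPM (median 463) in stroma and 3.85 to 8.07 CPM (median 5.74) in luminal cells (log2 fold change 6.51, SE 0.13, adjusted p = 6.8e-23, higher in 7 of 7 mice). Col8a1, a short-chain network collagen, differs least of the called members of this group, with 1.56 to 57.9 CPM (median 18.4) in stroma and 0.0832 to 240.5 CPM (median 13.6) in luminal cells (log2 fold change 1.34, SE 0.42, adjusted p = 0.0065, higher in 3 of 7 mice). The mean of its stromal libraries is higher in the 3 E+P mice and lower in all 4 untreated mice. Its call was lost without untreated mouse 1, 2 or 3 or E+P mouse 1 or 3 (adjusted p = 0.015, 0.025, 0.014, 0.046 and 0.041). It was also lost with library size only, with no filter, with limma voom, with the mouse as a block and without the 2 stromal libraries richest in epithelial markers (adjusted p = 0.029, 0.025, 0.068, 0.014 and 0.014) (range 0.0002 to 0.068).

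Within stroma, most fibrillar, basement membrane and beaded collagen genes are higher in GFP+ cells, and fibrillar genes differ most by median. In stroma 40 of the 44 members passed the filter, and by edgeR's quasi-likelihood test 25 were higher in GFP+ cells (20.6% of 17783 genes), 4 were higher in tdTomato+ cells (21.3%) and 11 were not called. The median log2 fold change was 1.51 beside -0.01 over all genes. Treatments taken alone gave 21 higher and 5 lower in untreated mice (all genes 13.5 and 14.9%) and 26 higher and 1 lower with E+P (all genes 14.2 and 13.9%).

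Of the fibrillar genes 8 of 10 tested were higher in GFP+ stroma, 0 were lower by edgeR's quasi-likelihood test, and the median was 2.65. Col1a1 reads 9318, 5444, 13287 and 7839 CPM untreated and 14446, 11786 and 10662 CPM with E+P in GFP+ stroma, and 1097, 489.97, 1396 and 704 CPM and 464, 359.9 and 473 CPM in tdTomato+ stroma (log2 fold change 4.04, SE 0.26, adjusted p = 8.9e-09, higher in 7 of 7 mice). Col3a1 reads 19095, 10054, 27013 and 11101 CPM and 24158, 22834 and 19522 CPM in GFP+ cells, and 1823, 1199, 2636 and 1106 CPM and 1091, 873 and 959 CPM in tdTomato+ cells (log2 fold change 3.90, SE 0.27, adjusted p = 1.8e-08, higher in 7 of 7 mice). For both, each GFP+ library is above every tdTomato+ library, and within the tdTomato+ untreated group mice 1 and 3 are highest. The remaining called fibrillar genes lie between 0.72 (Col27a1) and 4.08 (Col1a2). The ratio of Col1a1 to Col1a2, the chain it assembles with, is 1.9 to 2.5 per kb in untreated and 2.18 to 2.37 in E+P GFP+ stroma, and 2.32 to 2.94 and 2.17 to 2.32 in tdTomato+ stroma. This height rests on the merged exon lengths: by the longest transcript the same ratios are 0.905 to 1.19, 1.04 to 1.13, 1.11 to 1.4 and 1.03 to 1.11, so only its likeness between groups is read here.

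Collagen IV genes differ less, with 4 of 6 higher in GFP+ stroma, 1 lower and a median of 0.94. Col4a5, higher in GFP+ stroma in 7 of 7 mice, was not called. It was called with the mouse as a block, with no filter, with DESeq2 and without untreated mouse 4. Col4a1 reads 3488, 2942, 3840.4 and 3200.3 CPM untreated and 5073, 4369 and 4305 CPM with E+P in GFP+, and 1446, 1841, 2298 and 2004 CPM and 2229.7, 2363 and 1958 CPM in tdTomato+ stroma (log2 fold change 0.93, SE 0.11, adjusted p = 1.8e-06, higher in 7 of 7 mice, by edgeR's quasi-likelihood test). All GFP+ libraries are above all tdTomato+ libraries, with a smaller gap than for Col1a1. Col4a6 is the exception, with 0.568 to 4.8 CPM (median 1.74) in GFP+ and 2.43 to 14.6 CPM (median 5) in tdTomato+ libraries (log2 fold change -2.06, SE 0.39, adjusted p = 0.00025, lower in 7 of 7 mice). Beaded genes have 4 of 6 higher and 1 lower. Col6a1 reads 2056, 1869, 2645 and 1797 CPM and 2456, 2346 and 2305 CPM in GFP+, and 569.8, 477, 655 and 518 CPM and 579.9, 525 and 506 CPM in tdTomato+ stroma (log2 fold change 2.01, SE 0.11, adjusted p = 1.1e-10, higher in 7 of 7 mice), with every GFP+ library above every tdTomato+ library. Col6a4, an alternative chain of collagen VI, runs the other way: 2.04, 3.49, 2.38 and 0.367 CPM and 0.974, 5.7 and 2.61 CPM in GFP+, and 27.9, 7.49, 16.7 and 13.3 CPM and 13.4, 13.7 and 11.7 CPM in tdTomato+ stroma (log2 fold change -2.51, SE 0.43, adjusted p = 0.00015, lower in 7 of 7 mice). Here each tdTomato+ library is above every GFP+ library.

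FACIT genes are divided, 3 higher and 2 lower of 7 tested. Col14a1, which binds collagen I fibrils, spans 689 to 1295 CPM (median 788) in GFP+ and 11.7 to 212 CPM (median 35.6) in tdTomato+ stroma (log2 fold change 4.27, SE 0.41, adjusted p = 3.1e-06, higher in 7 of 7 mice, by edgeR's quasi-likelihood test). Col16a1, found near fibrils and basement membranes, spans 122 to 318 CPM (median 213) and 41 to 73.2 CPM (median 54.6) (log2 fold change 1.95, SE 0.15, adjusted p = 1.6e-08, higher in 7 of 7 mice). Col19a1 and Col22a1, both under 10 CPM on average in each group, are the FACIT genes higher in tdTomato+ stroma. Of the transmembrane genes 2 of 4 were higher in GFP+ stroma, among them Col13a1, known from the neuromuscular junction, at 18.4 to 77.7 CPM (median 38.6) against 0.0494 to 5.11 CPM (median 1.94) (log2 fold change 4.42, SE 0.48, adjusted p = 6.4e-06, higher in 7 of 7 mice). Outside the classes 4 of 7 were higher. Col15a1, a collagen of the basement membrane zone, reads 1102, 806, 1322 and 755 CPM and 2063, 1575 and 1302 CPM in GFP+, and 161, 136, 190.01 and 95.3 CPM and 41.4, 41.1 and 54.4 CPM in tdTomato+ stroma (log2 fold change 3.96, SE 0.19, adjusted p = 8.3e-11, higher in 7 of 7 mice). The lowest GFP+ value of Col15a1 is above the highest tdTomato+ value, and its tdTomato+ libraries are lower with E+P than without.

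**Figure D3:**
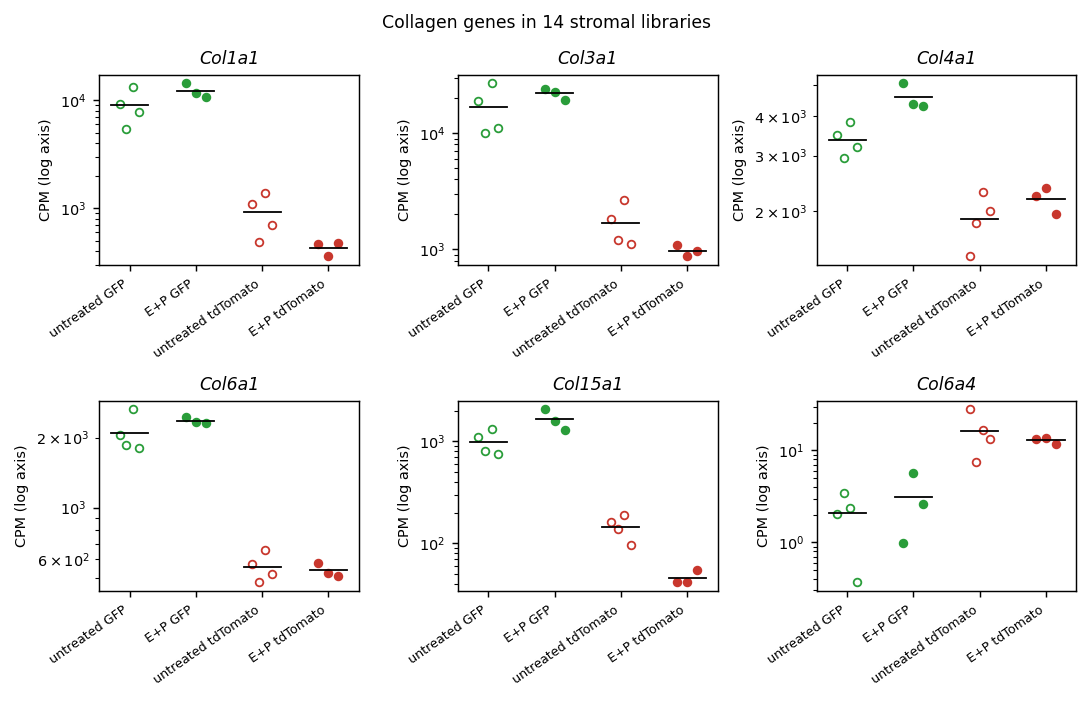
Levels of 6 collagen genes in 14 stromal libraries, in CPM on a log axis, with GFP+ libraries in green, tdTomato+ libraries in red, untreated mice as open and E+P mice as filled dots. A black line marks the mean of each group.

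Cell type markers differ between these fractions as well. Over all 17783 genes tested 20.6% were higher in GFP+ stroma and 21.3% lower. By edgeR's quasi-likelihood test, 9 of 9 fibroblast markers were higher in GFP+ stroma, with sums of 11006 to 12814 CPM (median 11643) against 284 to 1601 CPM (median 525), Dcn the most abundant in both. Pericyte and smooth muscle markers were higher in tdTomato+ stroma for 10 of 10, at 148.6 to 323 CPM (median 179.9) against 7264 to 10493 CPM (median 8079), led by Myh11 in untreated and Rgs5 in E+P tdTomato+ cells. Skeletal muscle markers were higher in tdTomato+ stroma for 8 of 8, at 7.65 to 16.4 CPM (median 11.6) against 2397 to 22002 CPM (median 10690.4), led there by Acta1. None of these lists overlaps between GFP+ and tdTomato+ libraries. Satellite cell markers were higher in tdTomato+ stroma for 5 of 5 (0.106 to 1.36 CPM (median 0.734) against 197 to 378 CPM (median 274), led there by Pax7). Basal markers were higher there for 4 of 6 (24.8 to 64.5 CPM (median 37.3) against 1599.6 to 6217 CPM (median 2659), led by Myh11). Endothelial markers were higher in tdTomato+ stroma for 5 of 6 (24.6 to 60.4 CPM (median 51.6) against 40.6 to 255 CPM (median 92.1), led by Cdh5), haematopoietic markers for 2 of 5 and tendon and cartilage for 3 of 6. Schwann cell markers were higher in GFP+ stroma for 3 and lower for 1 of 7. No testable adipocyte marker and 0 of 8 luminal epithelial markers were called, although 5 of the latter had an unadjusted p under 0.05. Markers at 0 in all libraries of a group are Myf5 in untreated and Pax7 and Pvalb in E+P GFP+ stroma for the muscle lists, and no fibroblast or pericyte marker is at 0 in stroma. The part that these cell types have in the collagen differences was not tested.

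Within luminal cells the picture is mixed: GFP+ cells are higher in most collagen IV chains, the collagen IX chains and Col11a1, and tdTomato+ cells in Col6a1, Col6a3, Col7a1, Col8a1 and Col11a2. In luminal cells 35 of the 44 members passed the filter, and by edgeR's quasi-likelihood test 15 were higher in GFP+ cells (15.7% of 16538 genes), 6 in tdTomato+ cells (19.0%) and 14 were not called. The median was 1.76 beside 0.00 over all genes. Untreated mice alone gave 9 higher and 2 lower (all genes 6.98 and 8.42%), and E+P mice alone 11 higher and 6 lower (all genes 11.3 and 14.1%). The count of calls, 21 with all libraries, is 28 without untreated mouse 3 or without its tdTomato+ luminal library alone, which adds Col1a1, Col1a2, Col3a1, Col5a1, Col5a2, Col14a1 and Col27a1.

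Basement membrane genes were higher in GFP+ luminal cells for 5 of 6, with a median of 1.88. Col4a5 reads 139.6, 159.9, 110.9 and 145 CPM untreated and 120.2, 124.1 and 133 CPM with E+P in GFP+, and 89.4, 105, 91.1 and 67.4 CPM and 32.8, 43.2 and 33.9 CPM in tdTomato+ cells (log2 fold change 1.19, SE 0.11, adjusted p = 2.6e-06, higher in 7 of 7 mice, by edgeR's quasi-likelihood test). Its partner Col4a6 reads 149.4, 179, 102 and 115 CPM and 71.3, 87.5 and 93.9 CPM in GFP+, and 59.2, 65.7, 65.5 and 40.6 CPM and 13.1, 15.5 and 12.6 CPM in tdTomato+ cells (log2 fold change 1.90, SE 0.15, adjusted p = 1e-06, higher in 7 of 7 mice). For each gene every GFP+ library is above every tdTomato+ library. Col4a1 was also higher in GFP+ cells, at 18.3 to 54.7 CPM (median 37.5) against 3.29 to 31.2 CPM (median 6.33) (log2 fold change 1.86, SE 0.35, adjusted p = 0.00091, higher in 7 of 7 mice), with overlapping fractions.

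Of the FACIT genes 5 of 7 tested were higher in GFP+ luminal cells. Col9a1 reads 21.8, 20.1, 9.65 and 23.1 CPM and 23.2, 32.3 and 32.7 CPM in GFP+, and 4.65, 1.4, 1.66 and 4.96 CPM and 1.52, 1.88 and 0.476 CPM in tdTomato+ cells (log2 fold change 3.49, SE 0.37, adjusted p = 1.2e-05, higher in 7 of 7 mice, by edgeR's quasi-likelihood test). Col9a2 and Col9a3, its partners in collagen IX, have log2 fold changes of 2.20 (SE 0.24, adjusted p = 1e-05) and 2.54 (SE 0.26, adjusted p = 7.2e-06). Col9a2 and Col9a3 were higher in GFP+ cells in 7 and 7 of 7 mice, and for all 3 chains every GFP+ library is above every tdTomato+ library. Col12a1 spans 42.1 to 88.1 CPM (median 62.2) in GFP+ and 2.68 to 16.9 CPM (median 11.3) in tdTomato+ cells (log2 fold change 2.65, SE 0.34, adjusted p = 5.2e-05, higher in 7 of 7 mice). It binds fibrils of collagen I, and its fractions do not overlap. Col16a1 spans 46 to 143 CPM (median 74.2) and 15.4 to 91.8 CPM (median 26.1) (log2 fold change 1.30, SE 0.24, adjusted p = 0.00071, higher in 7 of 7 mice). Fibrillar genes were mostly not called (7 of 9 tested), with Col11a1 higher in GFP+ cells, at 9.79 to 84.1 CPM (median 30.3) against 0.401 to 16 CPM (median 4.44) (log2 fold change 2.97, SE 0.46, adjusted p = 0.00022, higher in 7 of 7 mice). Col11a2, with a mean under 10 CPM, goes the other way, at 1.41 to 2.63 CPM (median 2.05) against 4.27 to 9.61 CPM (median 5.51) (log2 fold change -1.57, SE 0.22, adjusted p = 5.2e-05, lower in 7 of 7 mice), and was picked after its values were seen.

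Beaded genes divide, with 1 higher and 2 lower of 4 tested. Col6a1 reads 4.43, 7.95, 2.97 and 2.83 CPM untreated and 31.5, 10.7 and 13.9 CPM with E+P in GFP+, and 1.96, 2.01, 8.67 and 5.66 CPM and 248, 468 and 658 CPM in tdTomato+ cells (log2 fold change -2.35, SE 0.42, adjusted p = 0.00061, lower in 5 of 7 mice, by edgeR's quasi-likelihood test). The gap is that of E+P mice: untreated mice alone give -0.04 (adjusted p = 0.97) and E+P mice alone -4.66 (adjusted p = 0.0002). Col6a3, the long chain of the same molecule, reads 22.2, 33.9, 62.9 and 7.39 CPM and 20.7, 8.77 and 6.37 CPM in GFP+, and 42.6, 295, 98.7 and 33.4 CPM and 133, 156 and 171 CPM in tdTomato+ cells (log2 fold change -2.81, SE 0.58, adjusted p = 0.0017, lower in 7 of 7 mice). Both chains overlap between fractions in untreated mice and do not with E+P. The call of Col6a3 was lost without E+P mouse 2 or 3 (adjusted p = 0.016 and 0.014) (range 9.6e-06 to 0.016). Col7a1, the collagen of anchoring fibrils, spans 2.71 to 5.3 CPM (median 3.28) in GFP+ and 7.02 to 22.9 CPM (median 17.2) in tdTomato+ cells (log2 fold change -2.05, SE 0.22, adjusted p = 6.8e-06, lower in 7 of 7 mice). Col8a1 reads 17.4, 2.92, 19.1 and 16.2 CPM and 0.476, 0.323 and 0.0832 CPM in GFP+, and 56.3, 39.97, 42.6 and 240.5 CPM and 2.8, 10.5 and 11 CPM in tdTomato+ cells (log2 fold change -3.86, SE 0.67, adjusted p = 0.0005, lower in 7 of 7 mice), with untreated mouse 4 far above the others of its tdTomato+ group. Its call was lost with limma voom (adjusted p = 0.043) (range 2.9e-09 to 0.043). The libraries of Col8a1 overlap when the treatments are mixed. Col8a2, its partner, was called lower in GFP+ cells, but not with the mouse as a block, with limma voom, or without untreated mouse 1, 2 or 4 or E+P mouse 1 or 3.

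Markers move with this division too. Over all 16538 genes tested 15.7% were higher in GFP+ luminal cells and 19.0% lower. By edgeR's quasi-likelihood test, 5 of 8 luminal epithelial markers were lower in GFP+ cells (3897 to 6713 CPM (median 5019.9) against 6896 to 7626 CPM (median 7131), led by Krt18 and Krt8). In the same cells 3 of 7 basal markers were higher (55.1 to 141 CPM (median 117) against 11.3 to 66.5 CPM (median 39.1), led by Oxtr in GFP+ cells). Schwann cell markers were higher for 3 of 5 (207 to 335 CPM (median 248) against 44.8 to 135 CPM (median 116)), led in GFP+ cells by Sox10, and pericyte markers for 2 of 8, led by Notch3. The tendon and cartilage list had 2 of 3 testable markers higher, led by Sox9, the fibroblast list 1 higher and 1 lower of 7, and the endothelial list 1 of 3 lower. Basal markers stay far below luminal markers in each luminal library, and Higd1b of the pericyte list is at 0 in every luminal library. The part of these markers in the collagen differences was not tested.

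With E+P 1 collagen gene passed the threshold in each stromal fraction by edgeR's quasi-likelihood test. In GFP+ stroma 1 of 40 tested members rose (Col27a1; 0.163% of 17783 genes rose) and 0 fell (0.0675% of genes), with a median log2 fold change of 0.46 beside 0.00 over all genes. Of the 32 members with a positive log2 fold change there, 15 had an unadjusted p under 0.05. For the 0 lower members, 1 had an unadjusted p under 0.05, and DESeq2 and limma voom each called 1. Each of these tools called 3 higher, and edgeR with no filter called 10 members. In tdTomato+ stroma 0 rose (0.0281% of 17783 genes) and 1 fell (Col15a1; 0.0956% of genes), with a median of -0.39 beside -0.03. For the 0 higher members there, 2 had an unadjusted p under 0.05, and DESeq2 and limma voom called 0. Of the 30 members with a negative log2 fold change, 9 had an unadjusted p under 0.05. DESeq2 called 3 lower and limma voom 0, and edgeR with no filter called 7 members.

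Col27a1, a fibrillar collagen known from cartilage (ENSMUSG00000045672.15, chr4:63214004-63334991, plus strand, GRCm38), reads 98.5, 84.1, 108 and 114 CPM in untreated and 192, 189 and 158 CPM in E+P GFP+ stroma (log2 fold change 0.84, SE 0.13, adjusted p = 0.0047, 3 of 3 E+P libraries above all untreated ones, by edgeR's quasi-likelihood test). In tdTomato+ stroma it reads 88.3, 87.5, 78.7 and 80.4 CPM untreated and 70.9, 72 and 92 CPM with E+P, with overlapping groups. The call in GFP+ stroma was lost without untreated mouse 1, 2 or 3 or E+P mouse 1 or 2 (adjusted p = 0.023, 0.021, 0.011, 0.057 and 0.067). It was also lost at an adjusted p of 0.01 under scaling by library size only (range 3.1e-05 to 0.067), where Col6a6 was called instead. Col6a6 is lower with E+P, at 226, 184, 196 and 118 CPM untreated and 68.6, 76.3 and 68 CPM with E+P. Col23a1 is higher, at 11.9, 11.4, 13 and 11.8 CPM and 32.1, 44.2 and 30.1 CPM. Both were called with no filter, with limma voom, with DESeq2 and with only the groups compared, and Col6a6 also with the block. Without untreated mouse 4 the count in GFP+ stroma was 2, with Col6a6 added, and without untreated mouse 3 Col12a1 was called in place of Col27a1. Col1a1 and Col3a1, the most abundant members, were not called in GFP+ stroma, at 0.46 (SE 0.32, adjusted p = 0.86) and 0.41 (SE 0.33, adjusted p = 0.91).

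Col15a1 (ENSMUSG00000028339.17, chr4:47208161-47313167, plus strand, GRCm38) reads 161, 136, 190.01 and 95.3 CPM in untreated and 41.4, 41.1 and 54.4 CPM in E+P tdTomato+ stroma (log2 fold change -1.67, SE 0.25, adjusted p = 0.0073, 3 of 3 E+P libraries below all untreated ones, by edgeR's quasi-likelihood test). Its values in GFP+ stroma, 1102, 806, 1322 and 755 CPM untreated and 2063, 1575 and 1302 CPM with E+P, were not called (log2 fold change 0.73, SE 0.23, adjusted p = 0.25, 2 of 3 E+P libraries above all untreated ones). The call in tdTomato+ stroma was lost without untreated mouse 1 or 3 or E+P mouse 1, 2 or 3 (adjusted p = 0.039, 0.012, 0.03, 0.1 and 0.018), which leaves a count of 0 in each case. It was also lost at an adjusted p of 0.012 without the 2 libraries richest in epithelial markers, at 0.018 with limma voom and at 0.058 when only the groups compared were fitted (range 4.3e-18 to 0.1). The interaction tests whether the E+P effect differs between GFP+ and tdTomato+ stroma, and it called 1 member higher, Col15a1 (log2 fold change 2.40, SE 0.34, adjusted p = 0.0076). It called 0 lower, and over all genes 0.0450% of 17783 genes were called higher and 0% lower. Of the 32 members with a positive log2 fold change of the interaction, 18 had an unadjusted p under 0.05. For the 0 lower members 1 had an unadjusted p under 0.05, and DESeq2 and limma voom called 0. The median of the interaction over the 40 tested members was 0.81 beside 0.04 over all genes. That call was lost without untreated mouse 1 or 2 or E+P mouse 1, 2 or 3 (adjusted p = 0.052, 0.019, 0.058, 0.11 and 0.017), again with a count of 0 left. Without the 2 libraries richest in epithelial markers it was lost at an adjusted p of 0.012, where Col28a1 was called instead (range 4.6e-20 to 0.11). With the mouse as a block the interaction called 2 members, Col15a1 and Col1a1.

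Several marker lists shift in the same tdTomato+ libraries without a called gene. Over all 17783 genes tested 0.0281% rose and 0.0956% fell with E+P in tdTomato+ stroma, and 0.163% and 0.0675% in GFP+ stroma. The fibroblast sum reads 1417, 369.9, 1601 and 612 CPM in untreated and 340.3, 284 and 525 CPM in E+P tdTomato+ stroma, with Dcn the most abundant and 0 of the 9 markers at 0. By edgeR's quasi-likelihood test, 0 of 9 were called, 9 of 9 had an unadjusted p under 0.05, and their median log2 fold change was -1.39 beside -0.03 over all genes. Untreated mice 1 and 3 are high and mice 2 and 4 low, and the value of mouse 2 lies within the E+P range. Luminal epithelial markers sum to 80.1, 312, 486 and 18.2 CPM untreated and 9.24, 38.1 and 3.55 CPM with E+P, with 7 of 8 at an unadjusted p under 0.05 and a median of -4.02, led by Krt18 untreated and Krt8 with E+P. Endothelial markers go up in sum, from 92.1, 91.8, 40.6 and 90.7 CPM to 97, 255 and 211 CPM, with 3 of 6 at an unadjusted p under 0.05 and a median of 1.32, led by Cdh5. Neither of these lists has a marker at 0 in a whole group, the epithelial sums overlap between groups and the endothelial sums do not. In GFP+ stroma luminal epithelial markers sum to 22.3, 87.5, 30.5 and 18.9 CPM untreated and 5.19, 5.23 and 4.48 CPM with E+P, without overlap, led by Krt19 and with 0 at 0. Of them 3 of 8 had an unadjusted p under 0.05 (median -3.16), and the sole marker of any list called there was Notch3, which fell. The part of these markers in the stromal collagen values was not tested. The E+P comparisons rest on 3 against 4 mice, and both interactions share their libraries with the simple comparisons.

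In tdTomato+ luminal cells the collagen VI chains Col6a1 and Col6a2 rose strongly with E+P, while the collagen IV chains Col4a5 and Col4a6 fell. By edgeR's quasi-likelihood test, 3 of 35 tested members rose there (Col6a1, Col6a2 and Col16a1; 7.63% of 16538 genes rose) and 3 fell (Col4a5, Col4a6 and Col8a1; 6.44% of genes), with a median of -1.24 beside -0.05 over all genes. DESeq2 called 3 higher and 11 lower there, limma voom 5 and 4, and 15 lower members had an unadjusted p under 0.05. In GFP+ luminal cells 0 rose (3.17% of 16538 genes) and 2 fell (Col8a1 and Col20a1; 2.78%), with a median of -0.53 beside -0.03. For the 0 members that rose in GFP+ cells, 3 had an unadjusted p under 0.05, DESeq2 called 1 and limma voom 0, and lower they called 3 and 0. The count of 6 in tdTomato+ cells was 10 without untreated mouse 2 (Col16a1 lost, Col4a1, Col4a2, Col5a1, Col7a1 and Col25a1 gained) and 4 without untreated mouse 1 or 3 or E+P mouse 2 or 3. The count of 2 in GFP+ cells was 0 with limma voom, 0 without untreated mouse 1 or 3 or any 1 of the E+P mice, and 1 without the tdTomato+ luminal library of untreated mouse 3.

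Col6a1 (ENSMUSG00000001119.7, chr10:76708792-76726168, minus strand, GRCm38) reads 1.96, 2.01, 8.67 and 5.66 CPM in untreated and 248, 468 and 658 CPM in E+P tdTomato+ luminal cells (log2 fold change 6.68, SE 0.65, adjusted p = 3e-05, 3 of 3 E+P libraries above all untreated ones, by edgeR's quasi-likelihood test). Col6a2, its neighbour on the same strand (ENSMUSG00000020241.13, chr10:76595762-76623630, minus strand), reads 0.774, 0.852, 7.95 and 0.62 CPM and 73.4, 168.1 and 317 CPM (log2 fold change 6.32, SE 0.93, adjusted p = 0.00053, 3 of 3 E+P libraries above all untreated ones). Of the E+P mice, mouse 3 is highest and mouse 1 lowest for both chains. For Col6a2 the log2 fold change was 7.98 without the tdTomato+ luminal library of untreated mouse 3, which is its highest untreated one, and 5.69 without E+P mouse 3. Col6a3, the remaining chain of the classic molecule (ENSMUSG00000048126.16, chr1:90765923-90843971, minus strand), reads 42.6, 295, 98.7 and 33.4 CPM and 133, 156 and 171 CPM and was not called (log2 fold change 0.42, SE 0.75, adjusted p = 0.72, 0 of 3 E+P libraries above all untreated ones), with untreated mouse 2 above all E+P mice. Per kb, Col6a1 is 0.0186 to 0.463 times Col6a3 in untreated and 5.08 to 10.5 times in E+P tdTomato+ luminal cells. In GFP+ luminal cells the ratio shifts the same way, at 0.129 to 1.05 untreated and 3.32 to 5.96 with E+P. GFP+ stroma has 1.73 to 1.95 and 1.67 to 1.93, and tdTomato+ stroma goes the other way, at 1.17 to 1.69 and 0.95 to 1.03. In GFP+ luminal cells Col6a1 reads 4.43, 7.95, 2.97 and 2.83 CPM untreated and 31.5, 10.7 and 13.9 CPM with E+P and was not called (log2 fold change 2.06, SE 0.58, adjusted p = 0.034, 3 of 3 E+P libraries above all untreated ones). The interaction for Col6a1 was called (log2 fold change -4.62, SE 0.84, adjusted p = 0.0074, tdTomato+ cells rising more), but not with the mouse as a block (log2 -4.78, adjusted p = 0.036). It was also lost with no filter (adjusted p = 0.024) and without untreated mouse 1, 2 or 4 or E+P mouse 2 or 3 (adjusted p = 0.029, 0.024, 0.018, 0.059 and 0.059) (range 2.5e-05 to 0.059). Its log2 fold change was -4.00, -5.24 and -5.53 without untreated mouse 2 or 3 and E+P mouse 1. The interaction of Col6a2 was not called (log2 fold change -5.56, SE 1.25, adjusted p = 0.021).

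Col4a5 (ENSMUSG00000031274.16, chrX:141475385-141689234, plus strand, GRCm38) and Col4a6 (ENSMUSG00000031273.16, chrX:141165403-141474076, minus strand) start side by side on opposite strands, and both fell in tdTomato+ luminal cells. Col4a5 reads 89.4, 105, 91.1 and 67.4 CPM untreated and 32.8, 43.2 and 33.9 CPM with E+P (log2 fold change -1.24, SE 0.16, adjusted p = 0.00012, 3 of 3 E+P libraries below all untreated ones, by edgeR's quasi-likelihood test). Col4a6 reads 59.2, 65.7, 65.5 and 40.6 CPM and 13.1, 15.5 and 12.6 CPM (log2 fold change -2.05, SE 0.22, adjusted p = 2.8e-05, 3 of 3 E+P libraries below all untreated ones). In GFP+ luminal cells Col4a5 reads 139.6, 159.9, 110.9 and 145 CPM and 120.2, 124.1 and 133 CPM and was not called (log2 fold change -0.15, SE 0.15, adjusted p = 0.57, 0 of 3 E+P libraries below all untreated ones). Col4a6 reads 149.4, 179, 102 and 115 CPM and 71.3, 87.5 and 93.9 CPM there and was not called (log2 fold change -0.70, SE 0.20, adjusted p = 0.034, 3 of 3 E+P libraries below all untreated ones). The interaction called Col4a5 (log2 fold change 1.09, SE 0.22, adjusted p = 0.0091) and not Col4a6 (log2 fold change 1.35, SE 0.29, adjusted p = 0.013). With the mouse as a block Col4a5 was no longer called (adjusted p = 0.01) and Col4a6 was, which gives a count of 1 in place of 2. The call of Col4a5 was lost without untreated mouse 1, 2 or 3 or E+P mouse 1, 2 or 3 (adjusted p = 0.036, 0.011, 0.025, 0.04, 0.026 and 0.069) (range 0.00058 to 0.069). Without the tdTomato+ luminal library of untreated mouse 3 it was lost as well (adjusted p = 0.018), and Col6a2 was called instead. It was lost with DESeq2 size factors too (adjusted p = 0.011). The interaction of luminal cells thus called 1 member higher and 1 lower of 35 tested, where 0.786% and 1.49% of 16538 genes were, with a median of 0.55 beside 0.01. Its count was 0 without untreated mouse 1 or E+P mouse 2 or 3, and 1 without untreated mouse 2 or E+P mouse 1.

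Col8a1 (ENSMUSG00000068196.4, chr16:57624258-57754737, minus strand, GRCm38) fell in both luminal fractions. It reads 17.4, 2.92, 19.1 and 16.2 CPM in untreated and 0.476, 0.323 and 0.0832 CPM in E+P GFP+ cells (log2 fold change -5.67, SE 1.12, adjusted p = 0.0063, 3 of 3 E+P libraries below all untreated ones, by edgeR's quasi-likelihood test). In tdTomato+ cells it reads 56.3, 39.97, 42.6 and 240.5 CPM and 2.8, 10.5 and 11 CPM (log2 fold change -3.50, SE 0.82, adjusted p = 0.008, 3 of 3 E+P libraries below all untreated ones). The E+P values of GFP+ cells lie near the floor of 3 counts. In GFP+ cells the call was lost without untreated mouse 1 or 3 or E+P mouse 1, 2 or 3 (adjusted p = 0.02, 0.015, 0.03, 0.047 and 0.04). It was also lost with no filter, with limma voom and with the replicate number as a block (adjusted p = 0.022, 0.19 and 0.011) (range 2.7e-08 to 0.19). In tdTomato+ cells it was lost without untreated mouse 1, 3 or 4 or E+P mouse 1, 2 or 3 (adjusted p = 0.017, 0.012, 0.018, 0.051, 0.042 and 0.03), and with no filter, with the replicate number as a block and with only the groups compared (adjusted p = 0.03, 0.025 and 0.032) (range 0.00018 to 0.051). Without untreated mouse 4, its highest library, the log2 fold change was -2.47. Col16a1, a FACIT gene, reads 18, 15.4, 23.1 and 26.8 CPM untreated and 26.1, 60.5 and 91.8 CPM with E+P in tdTomato+ cells (log2 fold change 1.54, SE 0.33, adjusted p = 0.0053, 2 of 3 E+P libraries above all untreated ones), with E+P mouse 1 inside the untreated range. That call was lost without untreated mouse 1, 2 or 3 or E+P mouse 2 or 3 (adjusted p = 0.019, 0.02, 0.016, 0.028 and 0.04). Col16a1 was lost with library size only, with no filter, with only the groups compared and without the tdTomato+ luminal library of untreated mouse 3 (adjusted p = 0.01, 0.021, 0.028 and 0.012) as well (range 3.9e-05 to 0.04). In GFP+ luminal cells Col16a1 reads 46, 70.6, 50 and 74.2 CPM untreated and 107, 143 and 139 CPM with E+P. There 3 of 3 E+P libraries lie above all untreated ones. It was not called there, except by DESeq2 and with only the groups compared. Besides Col8a1, the member called in GFP+ cells was Col20a1, with a mean under 10 CPM (log2 fold change -1.43, SE 0.31, adjusted p = 0.0083). That call was lost with limma voom, with only the groups compared, without untreated mouse 1 or 3 and without any 1 of the E+P mice. It was lost too without the tdTomato+ luminal library of untreated mouse 3.

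**Figure D4:**
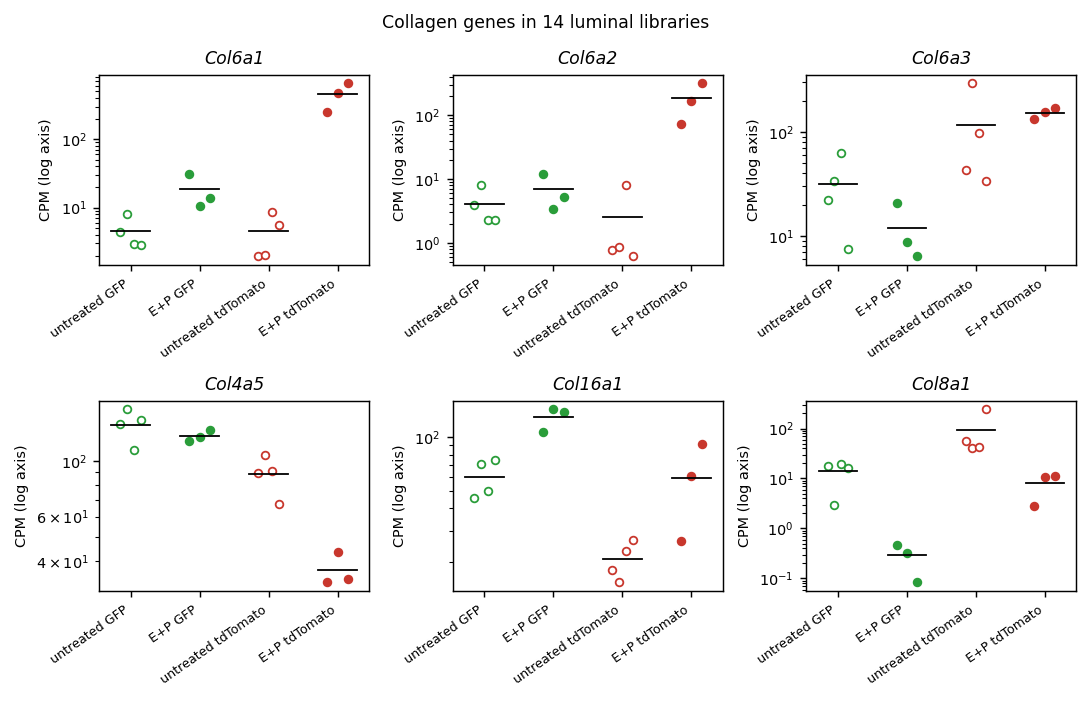
Levels of 6 collagen genes in 14 luminal libraries, in CPM on a log axis, with GFP+ libraries in green, tdTomato+ libraries in red, untreated mice as open and E+P mice as filled dots. A black line marks the mean, and values under 0.03 are drawn at 0.03.

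Markers of other cell types were read in the same tdTomato+ luminal libraries. Over all 16538 genes tested 7.63% rose and 6.44% fell with E+P there, and 3.17% and 2.78% in GFP+ luminal cells. The fibroblast list sums to 85.7, 102, 78.7 and 30.2 CPM untreated and 60.1, 81.8 and 94.2 CPM with E+P, with Ly6a the most abundant and Pi16 at 0 in all E+P libraries. By edgeR's quasi-likelihood test its only called member was Dcn, at 4.59, 3.53, 8.38 and 2.37 CPM untreated and 21.6, 33.6 and 51.4 CPM with E+P (log2 fold change 2.96, SE 0.61, adjusted p = 0.0039, 3 of 3 E+P libraries above all untreated ones), while Lum reads 0.258, 0, 0.795 and 0 CPM and 0, 0.128 and 0.19 CPM. The sum overlaps between the groups, although Dcn does not. Most of the untreated sum is Ly6a, at 75.4, 95.7, 60.6 and 23.6 CPM, against 32.5, 42.2 and 37 CPM with E+P. Ly6a encodes Sca1, by which the paper divides luminal cells, so this sum is no reading of fibroblasts alone. The endothelial list sums to 31.1, 36.3, 45.9 and 133 CPM and 222, 219.98 and 241 CPM, almost all of it Vwf, with 0 of 3 tested markers called, and Col1a1 reads 0.721, 0.94 and 0.428 CPM with E+P. Pericyte markers sum to 135, 102, 170.4 and 154 CPM and 185, 127 and 117 CPM, led by Notch3, with Higd1b at 0. Basal markers had 2 of 7 called higher, Krt17 and Trp63, with sums of 15, 11.3, 42.6 and 28.4 CPM and 66.5, 44.9 and 39.1 CPM. Schwann cell markers sum to 116, 129.6, 123.6 and 135 CPM and 53.9, 64.3 and 44.8 CPM, led by Mbp, which fell, with S100b at 0, and tendon and cartilage markers to 407, 356, 547 and 397 CPM and 133, 247 and 341 CPM, led by Sox9. Of the remaining lists Cldn3 and Csf1r were called higher. For GFP+ luminal cells the sums without overlap are fibroblast (51.8, 49.1, 42 and 21.3 CPM untreated, 14.4, 12.3 and 11.1 CPM with E+P, led by Pdgfra) and basal markers (55.1, 117, 69.4 and 75.4 CPM, 141, 137.8 and 125 CPM, led by Oxtr). So are pericyte (185, 239.9, 173 and 232 CPM, 161, 158 and 154 CPM, led by Notch3, Higd1b at 0), satellite cell (all under 2 CPM) and haematopoietic markers (6.52, 6.94, 5.83 and 7.39 CPM, 4.96, 5.11 and 4.16 CPM, led by Cd68), and Elf3 and Cd68 alone were called there, both lower. The part of these markers in the luminal collagen values was not tested.

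Genes that make, trim and bind collagen follow its distribution between lineages. In stroma against luminal cells, where 33.0% of genes were higher and 30.5% lower, the biosynthesis list had 17 higher and 1 lower of 21 by edgeR's quasi-likelihood test (median 1.84), the processing and cross-linking list 10 higher and 2 lower of 14 (median 6.02) and the receptor list 7 higher and 2 lower of 10 (median 3.60), beside 0.02 over all genes. P4ha3, a catalytic subunit of collagen prolyl hydroxylase, had a log2 fold change of 7.08, the lysyl hydroxylase Plod2 4.57 and the prolyl hydroxylase P3h3 4.51. The lysyl oxidases Loxl2, Lox and Loxl1, which cross-link collagen, had 11.14, 10.65 and 8.99, and the receptors Ddr2, Itga11 and Mrc2 9.99, 9.84 and 8.11. Without untreated mouse 2 P4ha3 had 7.74, without E+P mouse 2 Lox had 11.42, and without untreated mouse 3 Ddr2 had 10.68 (10.72 without its tdTomato+ luminal library). Higher in luminal cells were the receptors Itga2 (-2.36) and Ddr1 (-2.23), the transglutaminase Tgm2 (-1.92) and the propeptide protease Adamts3 (-1.49).

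In GFP+ against tdTomato+ stroma, where 20.6% of genes were higher and 21.3% lower, the counts were 17 higher and 3 lower of 21 for biosynthesis, 11 higher and 0 lower of 14 for processing and cross-linking and 3 higher and 4 lower of 10 for receptors, with medians of 1.27, 2.31 and -0.14 beside -0.01 over all genes. Higher in GFP+ stroma by edgeR's quasi-likelihood test were P4ha3 (log2 fold change 5.12), the transcription factor Creb3l1 (3.19), the prolyl hydroxylation partner Crtap (2.10), Loxl4 (4.11), Loxl1 (3.85), the procollagen protease enhancer Pcolce2 (3.51), the collagen uptake receptor Mrc2 (3.30) and Itga11 (2.10). Lower were P3h2 (-5.11), the ion channel gene Tmem38b (-2.13), Colgalt2 (-0.90), the collagen-binding integrin chain Itga1 (-4.17) and Ddr1 (-0.77). Colgalt2 lost its call without untreated mouse 2 or 3 or E+P mouse 1, 2 or 3 (adjusted p = 0.015, 0.024, 0.026, 0.073 and 0.014) and at 0.074 without the 2 libraries richest in epithelial markers (range 0.0016 to 0.074).

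In GFP+ against tdTomato+ luminal cells, where 15.7% of genes were higher and 19.0% lower, the counts were 6 higher and 10 lower of 20 for biosynthesis, 2 higher and 4 lower of 8 tested for processing and cross-linking and 1 higher and 1 lower of 7 tested for receptors, with medians of -0.51, -0.77 and -0.15 beside 0.00. Higher in GFP+ cells by edgeR's quasi-likelihood test were P3h2 (log2 fold change 2.83), Plod2 (2.24), the collagen chaperone Serpinh1 (1.99), Adamts3 (2.48) and Itga2 (1.14). Lower were Plod1 (-2.64), the prolyl hydroxylase subunits P4ha2 (-2.47) and P4ha1 (-2.06), Tgm2 (-1.85) and the procollagen protease Bmp1 (-1.62). P4ha1 lost its call without untreated mouse 2 or E+P mouse 1, 2 or 3 (adjusted p = 0.02, 0.026, 0.023 and 0.022) and with no filter (adjusted p = 0.016) (range 0.00012 to 0.026). Tgm2 lost it without untreated mouse 1 or 2 or E+P mouse 1, 2 or 3 (adjusted p = 0.012, 0.014, 0.019, 0.023 and 0.024) and with no filter (adjusted p = 0.015) (range 0.00016 to 0.024). Serpinh1 lost it without E+P mouse 1, 2 or 3 (adjusted p = 0.01, 0.013 and 0.012) (range 1.3e-05 to 0.013). The count over the lists of 24 was 14 without E+P mouse 1 and 15 without E+P mouse 2.

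With E+P few genes of any kind were called in stroma, and 3 genes of these lists are among them in GFP+ cells. The counts there by edgeR's quasi-likelihood test were 2 higher and 0 lower of 21 for biosynthesis, 0 higher and 0 lower of 14 for processing and cross-linking and 0 higher and 1 lower of 10 for receptors, with medians of 0.32, 0.05 and -0.08 beside 0.00 over all genes, of which 0.163% rose and 0.0675% fell. In GFP+ stroma Plod2 reads 67.6, 63.6, 115 and 93.9 CPM untreated and 229.9, 191 and 198 CPM with E+P (log2 fold change 1.29, SE 0.18, adjusted p = 0.0018, 3 of 3 E+P libraries above all untreated ones, by edgeR's quasi-likelihood test). Plod1 reads 50.9, 42.8, 50.4 and 45 CPM and 101, 84.9 and 88.2 CPM (log2 fold change 0.96, SE 0.13, adjusted p = 0.00087, 3 of 3 E+P libraries above all untreated ones). The collagen receptor Itga11 reads 267, 212, 177 and 275 CPM and 84.6, 76.7 and 122 CPM (log2 fold change -1.29, SE 0.18, adjusted p = 0.0018, 3 of 3 E+P libraries below all untreated ones). Plod2 lost its call without E+P mouse 1, 2 or 3 (adjusted p = 0.027, 0.011 and 0.011) (range 3.9e-11 to 0.027). Plod1 lost it without E+P mouse 1 (adjusted p = 0.024) (range 1.1e-09 to 0.024) and Itga11 without E+P mouse 1 or 2 (adjusted p = 0.038 and 0.036) (range 4.4e-10 to 0.038). The count over the lists, 3, was 0 without E+P mouse 1 and 1 without E+P mouse 2. In tdTomato+ stroma, where 0.0956% of genes fell, the sole call was Loxl4, under 10 CPM (log2 fold change -3.17, SE 0.46, adjusted p = 0.0055, 3 of 3 E+P libraries below all untreated ones), and the count was 0 without untreated mouse 1 or 3 or any 1 of the E+P mice and 2 without untreated mouse 2. The stromal interaction called 0 genes of the lists by edgeR, with an unadjusted p under 0.05 for 5 biosynthesis, 4 processing and 2 receptor genes, 2 calls by DESeq2 and 0 by limma voom.

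In tdTomato+ luminal cells with E+P, where 7.63% of genes rose and 6.44% fell, biosynthesis genes had 7 higher and 3 lower of 20 by edgeR's quasi-likelihood test (median 0.50), processing and cross-linking 0 higher and 0 lower of 8 tested (median 0.22) and receptors 2 higher and 0 lower of 7 tested (median -0.77), beside -0.05 over all genes. P3h1, a prolyl hydroxylase, reads 0.774, 0.608, 0.723 and 2.37 CPM untreated and 7.93, 18.5 and 11.9 CPM with E+P (log2 fold change 3.49, SE 0.51, adjusted p = 0.00032, 3 of 3 E+P libraries above all untreated ones), and 4.20 is its log2 fold change without untreated mouse 4. Its complex partner Ppib reads 115, 114, 131 and 104 CPM and 269, 256 and 272 CPM (log2 fold change 1.22, SE 0.09, adjusted p = 2.1e-06, 3 of 3 E+P libraries above all untreated ones). The integrin chain Itga10 reads 2.06, 1.58, 1.08 and 1.28 CPM and 11.1, 13.4 and 7.51 CPM (log2 fold change 2.84, SE 0.33, adjusted p = 5e-05, 3 of 3 E+P libraries above all untreated ones). Colgalt2 reads 2.99, 20.3, 8.17 and 16.1 CPM and 0.24, 0.855 and 0.19 CPM (log2 fold change -4.66, SE 0.81, adjusted p = 0.0012, 3 of 3 E+P libraries below all untreated ones), with its call lost without E+P mouse 3 (adjusted p = 0.012) and with limma voom (adjusted p = 0.023, range 1.8e-09 to 0.023). Its log2 fold change was -5.75 without E+P mouse 2. The count over the lists, 12, was 7, 6 and 7 without E+P mouse 1, 2 and 3.

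In GFP+ luminal cells, where 3.17% of genes rose and 2.78% fell, Creb3l1 was the sole gene called with E+P by edgeR's quasi-likelihood test (log2 fold change -0.91, SE 0.20, adjusted p = 0.0076, 3 of 3 E+P libraries below all untreated ones). Its call was lost without untreated mouse 1, 3 or 4 or E+P mouse 1, 2 or 3 (adjusted p = 0.024, 0.015, 0.022, 0.042, 0.038 and 0.029) and with no filter and with the replicate number as a block (adjusted p = 0.018 and 0.021) (range 0.00016 to 0.042). The luminal interaction called P3h1 (log2 fold change -3.89, SE 0.75, adjusted p = 0.0074), Ppib (log2 fold change -0.91, SE 0.13, adjusted p = 0.0015) and Colgalt1 (log2 fold change -0.76, SE 0.15, adjusted p = 0.0087), where 0.786% of genes were called higher and 1.49% lower. Each of them rose with E+P in tdTomato+ cells and was not called in GFP+ cells. P3h1 lost its call without untreated mouse 1, 2 or 3 or E+P mouse 1, 2 or 3 (adjusted p = 0.032, 0.018, 0.021, 0.021, 0.034 and 0.059) (range 1.3e-05 to 0.059), and Ppib without E+P mouse 2 or 3 (adjusted p = 0.021 and 0.024) (range 1.6e-07 to 0.024). Colgalt1 lost it without untreated mouse 1, 2, 3 or 4 or E+P mouse 1, 2 or 3 (adjusted p = 0.026, 0.018, 0.023, 0.011, 0.024, 0.058 and 0.084) and with library size only, with no filter and without the tdTomato+ luminal library of untreated mouse 3 (adjusted p = 0.029, 0.013 and 0.018) (range 0.00016 to 0.084). P3h1 was also lost without the tdTomato+ luminal library of untreated mouse 3 (adjusted p = 0.015), and its log2 fold change was -4.76 without untreated mouse 4. The count of 3 was 2 without untreated mouse 4, 1 without any other untreated mouse, E+P mouse 1 or the tdTomato+ luminal library of untreated mouse 3, and 0 without E+P mouse 2 or 3.

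Some members share a place in the genome (GENCODE M21 on GRCm38). Col4a1 (ENSMUSG00000031502.11, chr8:11198423-11312826, minus strand) and Col4a2 (ENSMUSG00000031503.13, chr8:11312805-11449287, plus strand) lie head to head and share 22 exon bases on opposite strands, and the other collagen IV genes, Col4a3 with Col4a4 and Col4a5 with Col4a6, are paired the same way without shared bases. Col6a1 and Col6a2 are neighbours on chromosome 10, and Col6a4, Col6a5 and Col6a6 all lie on chromosome 9. Exons of other genes overlap few bases of the members: Col9a3 shares 234 bases with Tcfl5 and Col4a3 563 bases with C430014B12Rik, both on the opposite strand. Col20a1 shares 79 bases with BX649560.1 on the same strand, and that gene has a mean of 5.32 to 10.7 CPM over the 8 groups.

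Promoter windows are shown for Col3a1, the member with the highest level per kb in GFP+ stroma, and for Col6a2 and Col16a1, which rose with E+P in tdTomato+ luminal cells. The windows are the 250 bases before the gene start of RefSeq GRCm38.p6, and 35 of the 44 members have an entry. That start lies 49344 (Col25a1), 1408 (Col27a1) and 804 bases (Col1a2) from the GENCODE start, at most 299 in the other members, and 0 for the 3 shown. Of the motifs searched on both strands, CCAAT reads ATTGG on the other strand. TATAAA, the TATA box, reads TTTATA on the other strand. AGAACA, a half-site bound by some steroid hormone receptors, reads TGTTCT on the other strand. CCAAT stands in 12 of the 35 members (34.3%) and 33.8% of 32851 windows, TATAAA in 5 members (14.3%) and 12.4% of windows, and AGAACA in 2 members (Col9a1 and Col20a1, 5.71%) and 16.1% of windows. Col3a1 holds 1 TATAAA, Col16a1 holds 1 CCAAT, and Col6a2 holds no motif of these, and a match describes the letters of a window and not a site in use. The Col16a1 window overlaps an exon of Gm12963. Capitals mark the motifs, and the windows are Col3a1 at chr1:45311288-45311537 (plus strand), Col6a2 at chr10:76623631-76623880 (minus strand) and Col16a1 at chr4:130047590-130047839 (plus strand), each 5′ to 3′.
Col3a1: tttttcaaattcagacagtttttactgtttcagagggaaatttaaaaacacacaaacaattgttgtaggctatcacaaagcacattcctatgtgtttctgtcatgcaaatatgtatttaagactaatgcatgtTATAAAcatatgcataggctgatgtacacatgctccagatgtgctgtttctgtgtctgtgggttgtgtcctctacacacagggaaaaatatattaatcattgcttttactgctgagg
Col6a2: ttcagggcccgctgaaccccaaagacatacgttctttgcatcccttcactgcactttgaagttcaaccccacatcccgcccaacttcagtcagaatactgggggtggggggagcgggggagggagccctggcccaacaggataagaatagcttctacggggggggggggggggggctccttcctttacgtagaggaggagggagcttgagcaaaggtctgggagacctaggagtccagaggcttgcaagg
Col16a1: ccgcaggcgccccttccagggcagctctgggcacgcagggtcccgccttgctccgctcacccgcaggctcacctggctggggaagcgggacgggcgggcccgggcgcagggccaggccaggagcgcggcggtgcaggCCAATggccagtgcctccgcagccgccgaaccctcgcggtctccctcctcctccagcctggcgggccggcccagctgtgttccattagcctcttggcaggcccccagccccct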

How the data were processed

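RNA of sorted stromal and luminal mammary cells was measured in 28 libraries of 7 mice. The authors used a SMARTer pico kit for stranded libraries, sequenced paired ends, aligned with STAR 2.5.2a to GRCm38.p5 and deposited raw counts of reads per gene, without molecular identifiers. The unit of the deposited values is thus raw counts. Reads were not aligned again. The GENCODE release and the strand setting of the counting are not stated, so symbols, exon lengths and positions come from GENCODE M21, in which 50376 of 50600 gene IDs were found, 45737 with the same version, and 12360 had 0 counts in every library. Col21a1 of the FACIT class is not a gene of the counts by that annotation.

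Libraries hold 8623383 to 24583803 counts, so 3 counts correspond to 0.116 to 0.302 CPM. Such floors cover counting error only, since copies made by amplification cannot be told from separate molecules. TMM factors ran from 0.833 to 1.23, 0 pairs of libraries were identical, and libraries of a group correlated at r = 0.953 to 0.989 over genes, which are not independent of each other.

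Tests used edgeR 4.0.16 under R 4.3.3, by its quasi-likelihood method with a robust fit, TMM and filterByExpr, and each of the 8 sorted populations was a group. The comparison of lineages used all libraries, and those within a lineage its 14 libraries. P values were adjusted by Benjamini-Hochberg over all genes tested, and a gene was called at an adjusted p under 0.01. SE is the absolute log2 fold change divided by the square root of F.

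Titles number the mice, so populations of a mouse are paired, while an untreated and an E+P mouse that share a number are not the same animal. Deviations from group means correlated at a mean r of 0.0496 for GFP+ and tdTomato+ stroma of a mouse against -0.0194 for different mice, 0.157 against -0.0605 for luminal cells, 0.0547 against -0.0213 for stroma and luminal cells, and -0.0149 against 0.005 for untreated and E+P libraries that share a number.

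Values by library are taken from members called whose higher group averages 10 CPM or more, the 3 highest of a class per kb and partners of a molecule. The text gives those the results turn on and sums up the rest by count and range. Pathway genes were picked if called with at least 10 CPM, up to 3 a direction and list. Loxl4, under 10 CPM, and P4ha3 with E+P in GFP+ stroma, which was not called, are given besides. Of those picked, the text leaves out Colgalt1 in stroma against luminal cells (log2 fold change -0.27) and Ddr2 in GFP+ against tdTomato+ stroma (0.46). It also leaves out Itgb1 in GFP+ against tdTomato+ luminal cells (-0.31), and Plod1 (1.79) and Itgb1 (0.54) with E+P in tdTomato+ luminal cells. Each of these calls was lost under some of the alternatives. The lists were biosynthesis, processing and cross-linking, and receptors, and the marker lists fibroblast, luminal epithelial, basal epithelial, pericyte and smooth muscle, skeletal muscle, satellite cell, Schwann cell, endothelial, haematopoietic, adipocyte, and tendon and cartilage. Members and lists were chosen with earlier results of these data known.

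The alternatives run were size factors of DESeq2, scaling to library size alone, DESeq2 1.42.0 (Wald test), limma 3.58.1 (voom), no filter, an adjusted p under 0.05, the mouse (or its replicate number) as blocking factor, only the groups compared, leaving out each mouse, and the longest transcript for CPM per kb. Chosen after seeing the data were leaving out tdTomato+ stroma of untreated mice 2 and 3, leaving out tdTomato+ luminal cells of untreated mouse 3, and, for the pathway lists, the block and each mouse left out. Motifs were counted in RefSeq promoter windows of 250 bases. RNA quality per library is not in the labels and was not used. The paper reports a wide range of RNA quality over its samples and a fragmentation time changed to suit RNA of lower quality.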

Additional observations from a re-analysis of the deposited data

Results flagged for a closer look

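In untreated groups of 4 libraries, 81 combinations of a member and a group were looked at, and in 4 of them 1 library lay far from the other 3. Chance flags about 1 in 20 groups. Col4a5 reads 13.2 CPM in tdTomato+ stroma of untreated mouse 4, against 34.5, 34.2 and 37.6 CPM in mice 1 to 3. Col1a1 reads 24.3 CPM in GFP+ luminal cells of untreated mouse 1, against 8.05, 7.82 and 8.02 CPM in mice 2 to 4. Col9a3 reads 29.6 CPM in GFP+ luminal cells of untreated mouse 4, against 15.6, 16.6 and 14.4 CPM in mice 1 to 3. Col8a1 reads 240.5 CPM in tdTomato+ luminal cells of untreated mouse 4, against 56.3, 39.97 and 42.6 CPM in mice 1 to 3. The effect of E+P differed between GFP+ and tdTomato+ cells by an interaction test for Col15a1 in stroma (log2 2.40) and for Col4a5 (log2 1.09) and Col6a1 (log2 -4.62) in luminal cells. In these 3 the call was lost without several of the single mice, and for Col4a5 and Col6a1 also with the mouse as a block.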

How the results depend on the processing

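Of 139 results of named genes, 110 kept their call and direction in all alternatives run for them and 29 did not. Of 2004 values under an alternative 1847 kept direction and call, 157 lost the call and 0 reversed. Counts of called members outside 1.5 times the count reported were as follows. For E+P in GFP+ stroma the count of 1 was 10 with no filter, 4 with limma voom, 4 with DESeq2, 2 with the block, 3 with only the groups compared and 4 with an adjusted p under 0.05. For E+P in tdTomato+ stroma the count of 1 was 7 with no filter, 0 with limma voom, 3 with DESeq2, 0 with only the groups compared and 0 with the 2 stromal libraries left out. For E+P in GFP+ luminal cells the count of 2 was 1 with no filter, 0 with limma voom, 4 with DESeq2, 1 with the luminal library left out and 6 with an adjusted p under 0.05. For E+P in tdTomato+ luminal cells the count of 6 was 14 with DESeq2 and 17 with an adjusted p under 0.05. For the stromal interaction the count of 1 was 13 with no filter, 5 with DESeq2, 2 with the block and 2 with an adjusted p under 0.05. For the luminal interaction the count of 2 was 1 with DESeq2 size factors, 1 with no filter, 4 with DESeq2, 1 with the block and 4 with an adjusted p under 0.05. With the shared replicate number as a block, E+P gave 2, 1, 2 and 5 calls in GFP+ stroma, tdTomato+ stroma, GFP+ and tdTomato+ luminal cells, and Col8a1 lost both luminal calls. The causes of these shifts were not tested.

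Leaving out each mouse in turn gave counts of 38 to 40 (stroma against luminal cells), 29 to 31 (GFP+ against tdTomato+ stroma), 16 to 28 (GFP+ against tdTomato+ luminal cells), 0 to 2 (E+P in GFP+ stroma), 0 to 1 (E+P in tdTomato+ stroma), 0 to 2 (E+P in GFP+ luminal cells), 4 to 10 (E+P in tdTomato+ luminal cells), 0 to 1 (the stromal interaction) and 0 to 2 (the luminal interaction).

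Over the pathway lists, the count reported and its values elsewhere were: E+P in GFP+ stroma (3) 6 with DESeq2, 9 with no filter and 5 with an adjusted p under 0.05, E+P in tdTomato+ stroma (1) 3 with DESeq2, 0 with limma voom, 5 with no filter, 2 with the 2 stromal libraries left out and 2 with an adjusted p under 0.05, E+P in GFP+ luminal cells (1) 2 with DESeq2, 2 with limma voom, 0 with no filter, 0 with the block and 4 with an adjusted p under 0.05, the stromal interaction (0) 2 with DESeq2 and 5 with no filter, the luminal interaction (3) 7 with DESeq2, 1 with the luminal library left out and 7 with an adjusted p under 0.05. Leaving out each mouse gave 36 to 40 (stroma against luminal cells), 34 to 37 (GFP+ against tdTomato+ stroma), 14 to 22 (GFP+ against tdTomato+ luminal cells), 0 to 4 (E+P in GFP+ stroma), 0 to 2 (E+P in tdTomato+ stroma), 0 to 1 (E+P in GFP+ luminal cells), 6 to 13 (E+P in tdTomato+ luminal cells), 0 to 0 (the stromal interaction) and 0 to 2 (the luminal interaction).

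Scaling by library size only moved the median of all genes by -0.29 (stroma against luminal cells, where higher genes went from 51.9 to 38.8% of calls), 0.14 (GFP+ against tdTomato+ luminal cells, where higher genes went from 45.3 to 60.8% of calls), -0.11 (E+P in GFP+ luminal cells, where higher genes went from 53.3 to 36% of calls), -0.22 (E+P in tdTomato+ luminal cells, where higher genes went from 54.2 to 25.2% of calls) and 0.12 (the luminal interaction, where higher genes went from 34.6 to 55.2% of calls). Of 18 CPM per kb values checked, fewer than the text gives, 11 moved past their spread with the longest transcript and 8 with library size only. Depth limits genes under the floor of 3 counts, groups hold 3 or 4 mice, and sorted fractions may differ in cell makeup, so levels describe populations and not cells.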
